A study of Homo sapiens with 51 samples.

Results

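PANC1, an established human pancreatic ductal adenocarcinoma cell line, was compared after transduction with a control lentivirus and drug selection against untreated PANC1 cells. The members are the 3 libraries labelled mCherry without M2rtTA and the 3 libraries labelled untreated, chosen by their titles, so that 6 of the 51 libraries of the series enter the comparison. Per the labels, the mCherry cells received a lentivirus carrying an open reading frame at a multiplicity of infection of 2 in the presence of 8 µg/ml polybrene, a polycation that aids viral uptake. Puromycin at 2.5 µg/ml, an inhibitor of protein synthesis to which the cells carrying the vector are resistant, and doxycycline at 0.6 µg/ml, a tetracycline that switches on inducible promoters, followed on the next day. The open reading frame was mCherry, a fluorescent protein, and the OVOL2 gene that the series is about was not carried by this virus. The level of mCherry itself was not examined here. The treatment label of the other group reads "Untreated", and the labels do not say whether those cells saw polybrene, puromycin or doxycycline. Virus, mCherry, polybrene, puromycin and doxycycline therefore cannot be told apart in this comparison. Cells were cultured for 6 days in all. The 45 libraries of PANC1, KP4 and PK45H, also pancreatic adenocarcinoma lines, include the same pair of groups in each line. They also include a parallel arm that combined the mCherry virus with one for M2rtTA, a transactivator that acts on tetracycline-inducible promoters, and 2 arms with OVOL2.

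Expression was measured by PLATE-seq, which barcodes cDNA from the 3′ ends of transcripts well by well, from 100 ng of total RNA per library. The untreated libraries held 3367089 to 4431189 counts and the mCherry libraries 4242752 to 7490556, and the ranges overlap. Genes with a count numbered 16796 to 17841 and 17592 to 18817 in the same order. Levels are given as CPM, counts scaled to a common library size with the TMM method, for the 3 libraries of a group in the order of their replicate numbers, or as a mean with its SD (n = 3). A change is the log2 fold change of mCherry against untreated, given with its standard error (SE), from the quasi-likelihood test of edgeR, and p-values are adjusted over all genes tested by the Benjamini-Hochberg method, with a threshold of 0.05. Beyond the word "triplicates" the labels do not say that replicates came from separate cultures, so these p-values measure the spread between libraries, which may be technical. Fewer cells expressing a gene and less of its RNA per cell cannot be told apart in such bulk libraries. The cells were checked against markers of their label: the keratin KRT19 stood at 473 ± 34.5 CPM in untreated PANC1 and the mesenchymal filament gene VIM at 3004 ± 197, whereas the epithelial cadherin CDH1 reached 7.28 ± 0.973. Of 6 leukocyte markers, CD3E, CD14 and CSF1R had no count in any untreated library, and the summed level of the 6 lay between 1.57 and 6.03 CPM in untreated and between 2.84 and 4.60 CPM in mCherry libraries. INS and GCG, the hormone genes of islet cells, were at 0 in all 6 libraries, as were CPA1 and CTRB1 of acinar cells. Other members of these lists had some counts. The sum of 4 islet markers reached 0.232 CPM in untreated and 1.49 CPM in mCherry libraries, and that of 5 acinar markers 1.39 and 0.690 CPM. The sum of 6 fibroblast markers was 26.9 to 30.4 CPM in untreated and 23.4 to 25.3 CPM in mCherry libraries.

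Cells that lack an amino acid, are loaded with unfolded protein or sense other stress phosphorylate the initiation factor eIF2α. This lowers general translation and raises that of ATF4, a transcription factor whose targets make, import and charge amino acids and, with time, include stress regulators such as TRIB3 and CHAC1. Sterol and fatty acid synthesis is governed by the SREBP transcription factors, which stay in the endoplasmic reticulum together with SCAP and INSIG1 when sterols are plentiful and are released to the nucleus when they are scarce. The mitochondrial genome is transcribed as long precursors that are cut into ribosomal, transfer and messenger RNAs, so the levels of its transcripts also depend on their stability.

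In PANC1, 79 of 13218 tested genes passed the threshold between mCherry and untreated cells, which is 0.598% of them: 36 genes (0.272%) were higher and 43 (0.325%) lower in mCherry cells. A further measure is how often the groups did not overlap at all, which held for 2057 of the 13218 genes, or 15.6% (7.14% with mCherry higher and 8.42% with mCherry lower). Genes described below were mostly chosen by p, so separate groups of such genes are no further support. The median change of all tested genes was 0.00 on the log2 scale. Of 23 gene lists of 718 genes, 3 groups held most of the called members. Genes of the amino acid and ATF4 response were higher, genes of sterol and fatty acid synthesis were lower, and mitochondrially encoded transcripts moved in both directions. The lists held 46 of the 79 genes. Each of the 79 kept its direction whenever 1 library was left out, but the number of calls then fell to between 27 (without untreated replicate 1) and 60 (without mCherry replicate 2). In those 6 refits, 25 of the 79 genes passed every time and 24 in none. DESeq2 called 191 genes in place of 79, and a fit of the 6 libraries alone called 23.

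Some genes of the amino acid and ATF4 response, ATF4 among them, were called higher in mCherry PANC1. Of 21 genes on the list of the amino acid and ATF4 response, 20 passed the filter on low counts, and 6 of these were called higher and none lower, against 0.272% of all tested genes called higher. Their median change was 0.80, and 18 of the 20 lay above 0. To show the genomic context of such genes, promoters of the RefSeq annotation (GRCh38.p14) were searched on both strands for TGATGNAA, the core of the C/EBP-ATF element to which ATF4 binds in pairs with C/EBP factors. The letters were found in the promoter windows (250 bases before to 50 after the start) of ASNS, CHAC1, GOT1 and MARS1, which are 4 of the 25 genes called higher that had a promoter in the table, or 16%. The share was 1.78% of the promoters of 10429 tested genes and 0 of the 32 genes called lower. On the 4 amino acid lists as a whole it was 26.8% (15 of 56 promoters), close to the 28.6% (4 of 14) of their members called higher, so within these lists the match was about as frequent whether or not a gene was called. The 3 stretches of 88 bases below are shown because they hold this match in 3 genes called higher. They are printed 5′ to 3′ on the strand of the gene, with the match in capitals, which for CHAC1 and GOT1 reads as its reverse complement.
ASNS, chr7:97872429-97872516, minus strand: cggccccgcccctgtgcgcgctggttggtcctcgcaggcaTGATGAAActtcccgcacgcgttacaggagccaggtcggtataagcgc
CHAC1, chr15:40953222-40953309, plus strand: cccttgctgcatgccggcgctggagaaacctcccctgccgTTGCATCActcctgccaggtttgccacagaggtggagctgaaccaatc
GOT1, chr10:99430775-99430862, minus strand: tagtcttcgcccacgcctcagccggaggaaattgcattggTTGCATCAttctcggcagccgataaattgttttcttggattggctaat
The matches begin 68, 209 and 198 bases before the annotated start in the same order. These letters describe the windows only, since binding was not measured.

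TRIB3, a pseudokinase that restrains AKT and ATF4 signalling, measured 11, 7.88 and 11.6 CPM in untreated and 36.1, 36.3 and 39.7 CPM in mCherry libraries. All mCherry libraries lay above all untreated ones, and the change was 1.88 (SE 0.19, adjusted p = 0.000362). CHAC1, an enzyme that degrades glutathione, went from 24.7, 26.4 and 17.6 to 94.1, 77 and 69.9 CPM, a change of 1.80 (SE 0.20, adjusted p = 0.000403). NUPR1, a small stress-induced chromatin protein, stood at 26.5, 27.4 and 32.4 CPM in untreated and 69.7, 56.3 and 73.5 CPM in mCherry libraries (1.21, SE 0.18, adjusted p = 0.00481). STC2, which encodes the secreted hormone stanniocalcin-2, rose from 11, 20.2 and 13.9 to 36.4, 56.4 and 43.8 CPM, a change of 1.60 (SE 0.24, adjusted p = 0.00605). In each of these 4 genes the groups did not overlap, which held with mCherry higher for 7.14% of all tested genes. STC2 had the widest spread among the mCherry libraries relative to its mean. GDF15, a secreted cytokine of stressed cells, averaged 13.2 ± 3.05 CPM in untreated and 33.2 ± 2.4 CPM in mCherry cells (1.34, SE 0.23, adjusted p = 0.0153). The transcript of ATF4 went from 159 ± 3.76 to 282 ± 25.4 CPM, a change of 0.83 (SE 0.15, adjusted p = 0.0195). DDIT3, which encodes the pro-apoptotic factor CHOP, measured 66.3 ± 7.61 and 108 ± 9.7 CPM and did not pass (0.70, adjusted p = 0.052). Other members that did not pass were SESN2 (1.84, adjusted p = 0.0761), JDP2 (0.96, adjusted p = 0.0936), PPP1R15A (0.89, adjusted p = 0.141), CEBPG (0.62, adjusted p = 0.112), ATF3 (0.30, adjusted p = 0.805), ATF5 (−0.27, adjusted p = 0.591) and VLDLR, a lipoprotein receptor, which had the most negative value (−1.22, adjusted p = 0.802). FGF21 was too low to be tested. TRIB3, CHAC1 and NUPR1 passed whichever library was left out. STC2 failed only without untreated replicate 1 (adjusted p = 0.0504), whereas GDF15 and ATF4 failed in 4 and 5 of the 6 refits, with adjusted p up to 0.0968 (without untreated replicate 1) and 0.107 (without mCherry replicate 3).

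**Figure D1:**
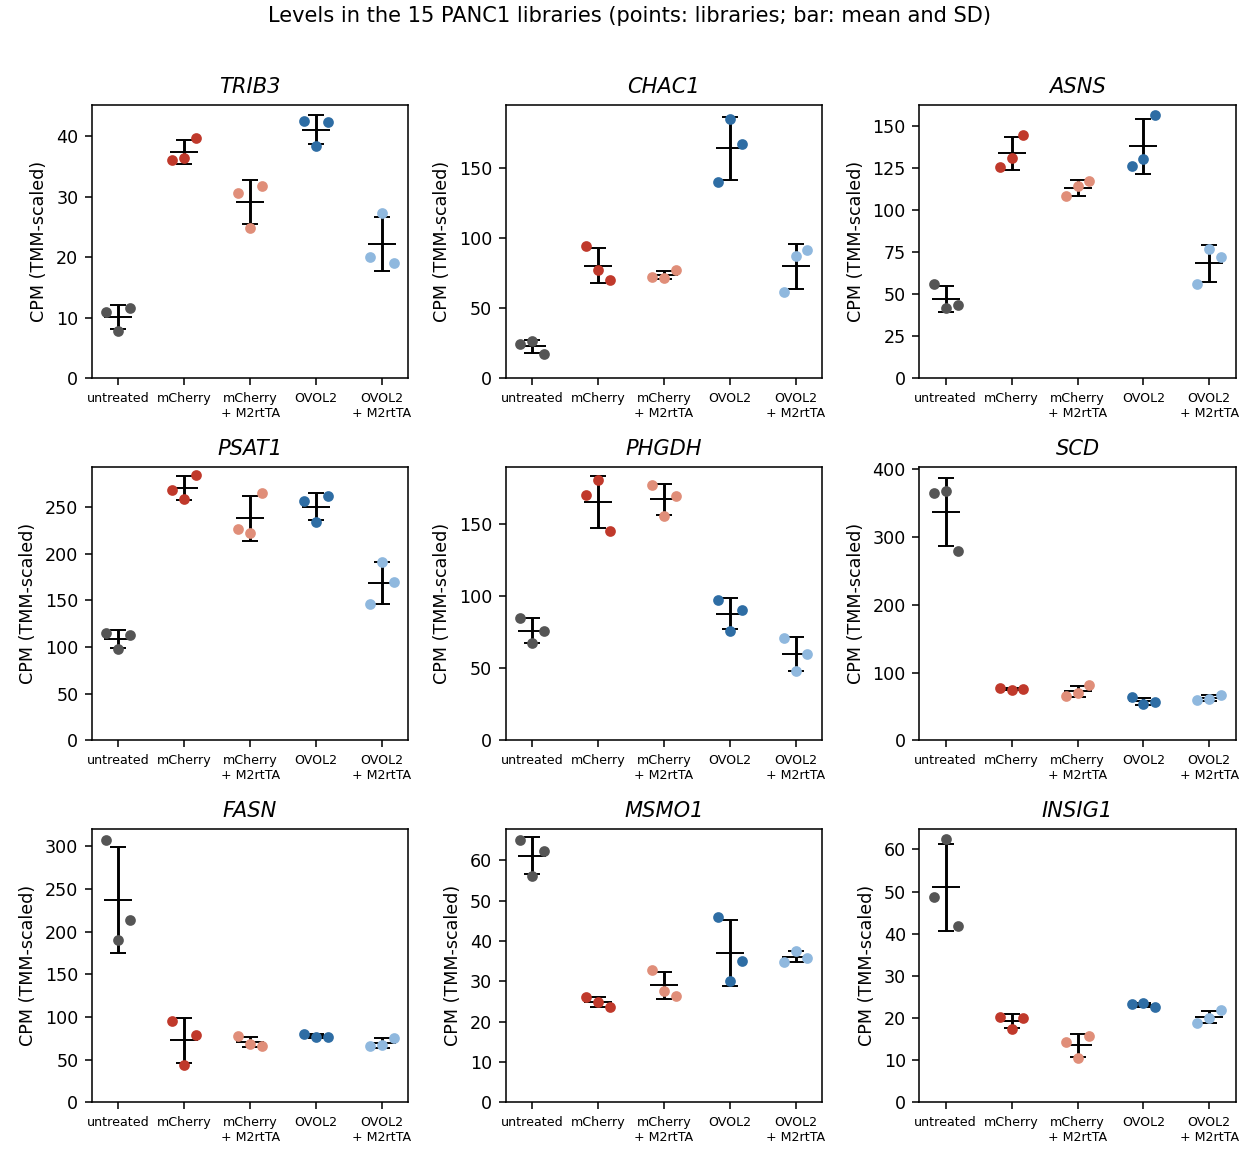
CPM of 9 genes (y axis, linear from 0) in the 15 PANC1 libraries by group (x axis): points are libraries, and the bars give the mean and SD of 3. TRIB3, CHAC1, ASNS, PSAT1 and PHGDH lie higher in all 3 mCherry libraries than in any untreated library, and SCD, FASN, MSMO1 and INSIG1 lower, with SCD at 75.9 against 337 CPM. Of all tested genes, 15.6% had groups that did not overlap.

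Enzymes that make serine, asparagine and related metabolites rose in the same cells. All 18 genes of that list were tested, and 5 were called higher and none lower, against 0.272% of all tested genes called higher. The median change was 0.66 with 13 of 18 above 0. PHGDH, which opens serine synthesis from glycolysis, went from 84.8, 67.2 and 76 CPM in untreated to 169.6, 180.0 and 145 CPM in mCherry libraries, a change of 1.12 (SE 0.16, adjusted p = 0.00481). PSAT1, the next enzyme of that pathway, rose from 116, 97.6 and 113 to 268, 258 and 284 CPM (1.31, SE 0.14, adjusted p = 0.000362). The last enzyme, PSPH, did not pass, at −0.05 (adjusted p = 0.961). ASNS, asparagine synthetase, measured 56.3, 42.2 and 43.7 CPM in untreated and 126, 131 and 145 CPM in mCherry libraries, and its change was 1.5 (SE 0.16, adjusted p = 0.000399). PCK2, the mitochondrial phosphoenolpyruvate carboxykinase, went from 6.06, 6.95 and 6.07 to 19.1, 17.1 and 22.8 CPM (1.62, SE 0.23, adjusted p = 0.00336). For all 4 genes the lowest mCherry library lay above the highest untreated one, which held for 7.14% of all tested genes. The 4 genes passed whichever library was left out. GOT1, the cytosolic aspartate aminotransferase, changed by 0.76 (SE 0.15, adjusted p = 0.0353) but failed in each of the 6 refits, with adjusted p up to 0.171 without untreated replicate 1. Enzymes of the folate cycle did not pass, with values of 0.63 (adjusted p = 0.197) for MTHFD2, 0.21 (adjusted p = 0.838) for SHMT2 and −0.29 (adjusted p = 0.585) for MTHFD1. CBS, which opens the route from homocysteine to cysteine, had the most negative value of the list at −2.38 (adjusted p = 0.288).

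Some amino acid transporters and aminoacyl-tRNA synthetases rose as well. The share of all tested genes called higher was 0.272%. Of 12 transporter genes, 10 were tested and 2 called higher: SLC1A5, the glutamine transporter ASCT2, at 0.73 (SE 0.12, adjusted p = 0.0125), and SLC1A4, which carries alanine, serine and cysteine, at 1.09 (SE 0.21, adjusted p = 0.0308). SLC1A5 stood at 45.1, 42 and 45.7 CPM in untreated and 65.6, 76.7 and 78.3 CPM in mCherry libraries. SLC6A9, a glycine transporter, missed the threshold at 1.41 (adjusted p = 0.0609), and SLC7A11, the cystine exchanger, had a large error (1.58, SE 1.14, adjusted p = 0.713). All 20 cytosolic aminoacyl-tRNA synthetases were tested, and 3 were higher: GARS1 for glycine (0.87, SE 0.15, adjusted p = 0.0164), YARS1 for tyrosine (0.73, SE 0.14, adjusted p = 0.0351) and MARS1 for methionine (0.59, SE 0.12, adjusted p = 0.0455). The median over the 20 was 0.36, and the most negative value was that of VARS1 (−0.48, adjusted p = 0.211). None of these 5 calls was firm against the loss of 1 library. SLC1A5 passed only without mCherry replicate 1 and GARS1 only without mCherry replicate 2, and SLC1A4, YARS1 and MARS1 in no refit, with adjusted p up to 0.207 (MARS1, without untreated replicate 1).

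**Figure D2:**
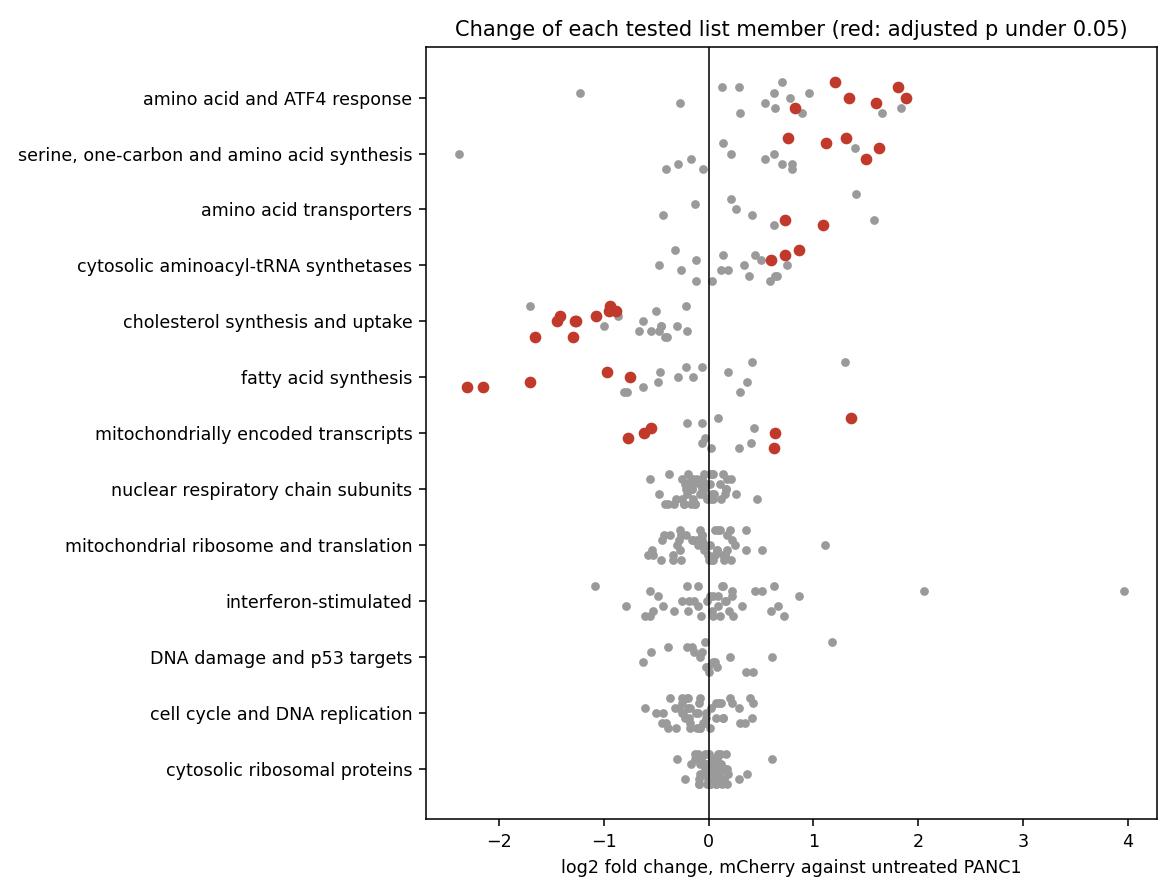
Log2 fold change of mCherry against untreated PANC1 (x axis) for every tested member of 13 gene lists (y axis). Red points passed the threshold, grey ones did not, and the line marks the median of all tested genes. The upper 4 lists hold 16 genes called higher, the 2 lipid lists hold 15 called lower, and the lower 6 lists hold none. Of all tested genes, 0.272% were called higher and 0.325% lower.

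Sterol synthesis genes were lower in transduced cells. Of the 26 genes on the list of cholesterol synthesis and uptake, 25 were tested, 10 were called lower and none higher, against 0.325% of all tested genes called lower. None of the 25 lay above 0, and their median change was −0.86. Called genes span the pathway from its first condensation (ACAT2) through the isoprenoid steps (IDI1, FDPS) and squalene (FDFT1) to the sterol ring enzymes (TM7SF2, MSMO1, EBP, DHCR7), and include the regulator INSIG1. ACAT2, the cytosolic acetoacetyl-CoA thiolase, fell from 59.7, 51.9 and 60.7 to 19.1, 19.98 and 15.4 CPM (−1.66, SE 0.23, adjusted p = 0.00336). FDFT1, squalene synthase, went from 64.1, 70.7 and 72.3 CPM in untreated to 38.7, 31.6 and 37.1 CPM in mCherry libraries, a change of −0.95 (SE 0.15, adjusted p = 0.00749). MSMO1, which removes methyl groups from the sterol ring, measured 65, 56.1 and 62.5 CPM in untreated and 26.2, 25 and 23.7 CPM in mCherry libraries (−1.29, SE 0.16, adjusted p = 0.00117). The mCherry values of MSMO1 lay close together and well under the lowest untreated value. DHCR7, which catalyses the last step to cholesterol, stood at 116, 158 and 107 CPM in untreated and 35, 49 and 55.7 CPM in mCherry libraries, with a change of −1.45 (SE 0.24, adjusted p = 0.0131). INSIG1, which retains the SCAP and SREBP complex in the endoplasmic reticulum and is itself an SREBP target, fell from 48.7, 62.4 and 41.9 to 20.2, 17.3 and 20.04 CPM, a change of −1.41 (SE 0.18, adjusted p = 0.00148). The groups of 3 were separate for each of these 5 genes, which held with mCherry lower for 8.42% of all tested genes.

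Further calls on the list were IDI1 (−1.26, SE 0.24, adjusted p = 0.0301), TM7SF2 (−1.27, SE 0.26, adjusted p = 0.0406), EBP (−1.07, SE 0.21, adjusted p = 0.0372) and FDPS (−0.94, SE 0.20, adjusted p = 0.0482). LSS, lanosterol synthase, missed the threshold at −1.71 (adjusted p = 0.069), and so did NSDHL (−0.63, adjusted p = 0.0827). HMGCS1, an early enzyme of the pathway, gave −0.47 (adjusted p = 0.566) and SQLE, the squalene epoxidase, −0.42 (adjusted p = 0.618). SREBF2, which encodes the SREBP of the sterol pathway, gave −0.55 (adjusted p = 0.629) and SCAP −0.22 (adjusted p = 0.892). MSMO1, INSIG1, ACAT2 and FDFT1 passed whichever library was left out. DHCR7 failed without untreated replicate 2 and without mCherry replicate 1 (adjusted p up to 0.0738), IDI1, TM7SF2 and FDPS failed in 5 of 6 refits, and EBP in all 6, with adjusted p up to 0.225 (FDPS, without untreated replicate 1). The list kept 5 to 7 calls when 1 library was left out, 6 when all libraries were thinned to the depth of the smallest and 3 in the fit of the 6 libraries alone.

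Fatty acid synthesis genes were lower too, with 5 of 19 tested genes called lower and none higher, against 0.325% of all tested genes called lower. The median change of that list was −0.46, and 5 of the 19 lay above 0. SCD, the desaturase that makes oleate from stearate, had the smallest p of all genes. It stood at 364, 367 and 279 CPM in untreated libraries and at 77.1, 74.9 and 75.7 CPM in mCherry libraries, a change of −2.15 (SE 0.15, adjusted p = 6.67e-06). The SD was 1.09 CPM in mCherry and 50.1 CPM in untreated libraries, each from 3 values, and the difference in spread was not tested. The mCherry + M2rtTA libraries given below were spread more widely than the mCherry ones. FASN, fatty acid synthase, went from 308, 191 and 214 to 95.7, 43.9 and 79 CPM (−1.71, SE 0.24, adjusted p = 0.00336), and its highest mCherry library lay under its lowest untreated one. Such separation with mCherry lower held for 8.42% of all tested genes. FADS2, a desaturase of polyunsaturated fatty acids, fell from 70.7, 35.2 and 63.3 to 14.3, 9.45 and 10.8 CPM, a change of −2.30 (SE 0.40, adjusted p = 0.0168), and untreated replicate 2 was the lowest of the untreated libraries. SREBF1, which encodes the SREBP of the fatty acid genes and is one of its own targets, measured 28.7, 24.8 and 33 CPM in untreated and 16.6, 14.9 and 12.6 CPM in mCherry libraries (−0.97, SE 0.18, adjusted p = 0.0284). SLC25A1, the mitochondrial citrate carrier that supplies carbon for lipid synthesis, changed by −0.75 (SE 0.13, adjusted p = 0.0168). ELOVL6, an elongase, had the most positive value of the list at 1.30 (SE 0.81, adjusted p = 0.653). FADS1 (−0.80, adjusted p = 0.052), ACLY (−0.62, adjusted p = 0.0829) and ACACA (−0.78, adjusted p = 0.191) did not pass. SCD and FASN passed whichever library was left out. FADS2, SREBF1 and SLC25A1 each failed in 5 of the 6 refits, FADS2 and SREBF1 passing only without untreated replicate 2 and SLC25A1 only without mCherry replicate 2, with adjusted p up to 0.13 (SREBF1, without untreated replicate 3). The letters TCACNCCAC, searched for as a sterol regulatory element, were in 0 of the 11 promoters available among the called lipid genes. No promoter of this group is therefore shown. The letters were in 1.09% of the promoters of tested genes and in 2 of 37 promoters of the whole lipid lists (5.41%). They were also in 2 of the 25 of genes called higher (8%), GOT1 and SLC1A4. Only this exact string was searched, so its absence does not show that a promoter lacks such an element.

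Mitochondrially encoded transcripts moved in opposite directions. All 15 were tested, with 3 called higher and 3 lower, against 0.272% and 0.325% of all tested genes. Their median change was 0.02. Their summed share of counts was 27.7% ± 2.28 in mCherry and 28.7% ± 0.788 in untreated libraries (SD, n = 3), a difference of −1.01 percentage points (two-sided exact permutation test, p = 0.5, where 20 assignments allow no p under 0.1). RNR1, the small ribosomal RNA of the mitochondrion, measured 3208, 3007 and 2922 CPM in untreated and 7813, 5209 and 10465 CPM in mCherry libraries (1.36, SE 0.18, adjusted p = 0.00279). Its 3 mCherry values were widely spread but all lay above the untreated ones, which lay close together. Groups separate with mCherry higher were found for 7.14% of all tested genes. RNR2, the large ribosomal RNA, went from 19166, 22145 and 20526 to 34846, 29091 and 31422 CPM, a change of 0.62 (SE 0.10, adjusted p = 0.00962). ND4, a subunit of respiratory complex I, fell from 47520.1, 48418 and 42637 to 28909, 24583 and 27699 CPM (−0.77, SE 0.08, adjusted p = 0.000362). COX2, subunit II of cytochrome c oxidase, stood at 25507, 26826 and 25609 CPM in untreated and 17597, 17415 and 15979 CPM in mCherry libraries (−0.61, SE 0.07, adjusted p = 0.000768). In ND4 and COX2 the 2 groups were separate, which held with mCherry lower for 8.42% of all tested genes. COX3 was lower by a similar amount (−0.55, SE 0.11, adjusted p = 0.044).

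ND4L was higher, from 1154, 1237 and 1209.8 to 2239, 1690.3 and 1648 CPM (0.63, SE 0.12, adjusted p = 0.0351), and mCherry replicate 1 was its highest library. ND4L and ND4 overlap on one transcript, so it is uncertain how the counting divided their reads, and the same holds for ATP8 and ATP6. The other 9 transcripts did not pass, among them ND5 at 0.43 (adjusted p = 0.167), ND2 at 0.29 (adjusted p = 0.266), COX1 at −0.04 (adjusted p = 0.944), CYTB at −0.07 (adjusted p = 0.861) and ATP6 at 0.02 (adjusted p = 0.965). Together the ribosomal RNAs took 4.0% ± 0.532 of counts in mCherry and 2.41% ± 0.153 in untreated libraries, and the ratio of ribosomal to messenger counts was 0.169 ± 0.0184 against 0.0916 ± 0.00416 (exact permutation p = 0.1 for each, the smallest that 3 against 3 libraries can give). All 3 mCherry libraries exceeded all untreated ones in both measures. Since these libraries are primed at poly(A) tails, a ribosomal RNA is counted as far as it carries one. RNR1, ND4 and COX2 passed whichever library was left out, RNR2 in 3 of the 6 refits, ND4L only without mCherry replicate 2 and COX3 in none, with adjusted p up to 0.193 (COX3, without untreated replicate 1). Among nuclear genes of the same organelle, none of 55 respiratory chain subunits, 52 genes of the mitochondrial ribosome and translation or 15 mitochondrial chaperones and proteases was called, with medians of −0.08, −0.03 and 0.09. At the 0.598% called over all tested genes, few calls or none would fall on lists of these sizes.

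**Figure D3:**
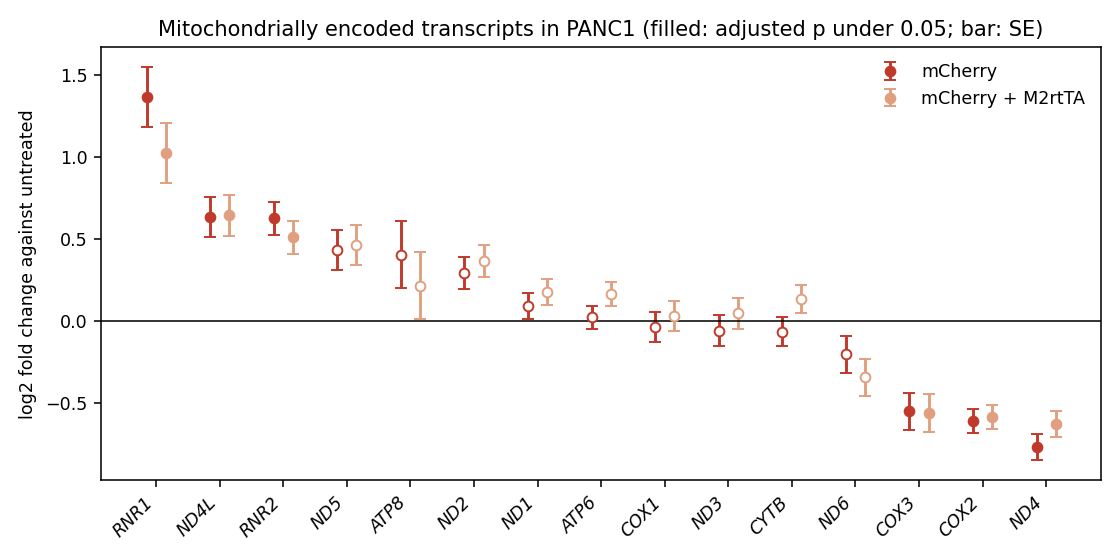
Log2 fold change against untreated PANC1 (y axis) of the 15 mitochondrially encoded transcripts (x axis) in both mCherry arms, with the SE as bars and filled points for those past the threshold. RNR1, ND4L and RNR2 lie above 0 and COX3, COX2 and ND4 below it in both arms, which share their untreated libraries.

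Further called genes included markers of epithelial identity and secreted or surface proteins. AGR2, a disulfide isomerase of secretory epithelia and a marker of the classical type of pancreatic cancer, measured 49.6, 48.5 and 49.4 CPM in untreated and 21.9, 21.3 and 21.7 CPM in mCherry libraries (−1.18, SE 0.12, adjusted p = 0.000362). The 2 groups did not overlap, which held with mCherry lower for 8.42% of all tested genes. KRT19, a keratin of ductal cells, fell from 503, 436 and 481 to 254, 225 and 239.9 CPM (−0.98, SE 0.15, adjusted p = 0.00481), and reads of its processed pseudogene are not certain to be told apart. The summed level of 6 epithelial markers, which includes KRT19, lay between 3020 and 3308 CPM in untreated and between 2219 and 2694 CPM in mCherry libraries. The 6 did not move together: KRT19 alone was called, and 2 of the 6 changes lay above 0. KRT18 averaged 1608 CPM in untreated and 1189 CPM in mCherry libraries, KRT8 831 and 792, and KRT7 175 and 182. CRABP2, which carries retinoic acid to the nucleus, went from 428, 352 and 312 to 164, 172 and 142 CPM (−1.19, SE 0.17, adjusted p = 0.00336). ALPG, an alkaline phosphatase of germ cells and some tumours, stood at 20.2, 22.3 and 20.2 CPM in untreated and 5.75, 6.89 and 8.35 CPM in mCherry libraries (−1.57, SE 0.21, adjusted p = 0.00244), although its paralogs ALPP and ALPI share much of its sequence. CRIP1, a small LIM-domain protein, fell from 73.3, 109 and 71.4 to 21.4, 25.9 and 41.6 CPM, a change of −1.51 (SE 0.24, adjusted p = 0.00962). KRT19 and LLGL2 (−0.92, SE 0.17, adjusted p = 0.0217), a cell polarity gene, were the only ones called among 37 tested epithelial genes. Of all tested genes, 0.325% were called lower. VIM (−0.08, adjusted p = 0.868), EPCAM (0.22, adjusted p = 0.701) and CDH1 (−0.53, adjusted p = 0.708) did not pass, nor did OVOL2 itself, with 13, 10 and 2 counts in untreated and 4, 16 and 2 counts in mCherry libraries (−0.70, adjusted p = 0.819). AGR2, KRT19, CRABP2 and ALPG passed whichever library was left out. CRIP1 failed without mCherry replicate 1 (adjusted p = 0.0527) and LLGL2 passed only without mCherry replicate 2.

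BEX2, a small adaptor protein of the X-linked BEX family, rose from 1.79, 2.09 and 3.18 to 13.3, 12.7 and 15.8 CPM (2.58, SE 0.28, adjusted p = 0.000403). BEX4 of the same family had 2, 1 and 0 counts in untreated and 21, 22 and 20 counts in mCherry libraries (adjusted p = 0.00459), too few in the untreated group for a fold change. UPP1, uridine phosphorylase, went from 37.5, 37.3 and 47.4 to 74.3, 81.9 and 95.5 CPM, a change of 1.04 (SE 0.15, adjusted p = 0.00336). MRNIP, a partner of the MRN complex in DNA repair, stood at 83.4, 79.7 and 83 CPM in untreated and 154, 153 and 139 CPM in mCherry libraries (0.86, SE 0.12, adjusted p = 0.00336). These 4 genes passed whichever library was left out, and their groups did not overlap, which held with mCherry higher for 7.14% of all tested genes. ID3, an inhibitor of basic helix-loop-helix factors, measured 22.1 ± 0.153 and 46.4 ± 0.568 CPM (1.07, SE 0.17, adjusted p = 0.0105), but passed in only 2 of the 6 refits, those without mCherry replicate 2 or mCherry replicate 3. Among genes of iron and oxidant handling, FTH1, ferritin heavy chain (0.62, SE 0.11, adjusted p = 0.0179, with several processed pseudogenes), and HMOX1, heme oxygenase 1 (0.90, SE 0.19, adjusted p = 0.0472), were the only 2 called of 26. Of 24 genes of endoplasmic reticulum folding 2 were called, the chaperone gene HSPA5 and ERO1A, which is described below. HSPA5 rose by 0.85 (SE 0.17, adjusted p = 0.0351), from 219.6 ± 9.91 to 397 ± 33.6 CPM. VEGFA, the angiogenic growth factor, rose by 1.01 (SE 0.21, adjusted p = 0.0445) as the only called gene among 33 of glycolysis and hypoxia. The calls on these lists stand beside 0.272% of all tested genes called higher. FTH1 passed only without mCherry replicate 1 and HMOX1 only without mCherry replicate 3, and HSPA5 and VEGFA passed in none of the 6 refits, with adjusted p up to 0.171 (HMOX1, without untreated replicate 3).

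Among the calls, 2 rest on unusual counts. ERO1A, an oxidase of the endoplasmic reticulum, held 461, 379 and 360 counts in untreated and 4930, 578 and 129355 counts in mCherry libraries. Scaled to library size these were 103, 87.9 and 104 CPM and 1134, 78 and 23997 CPM, and on that scale the groups overlapped. Replicate 3 of mCherry held by far the most, replicate 1 was raised as well and replicate 2 was not (adjusted p = 0.0472, or 0.146 without replicate 3 and 0.139 with robust dispersion). NPIPB11 had 0 counts in each untreated library, which allows up to 3 per library, and 4, 33 and 11 counts in mCherry libraries (adjusted p = 0.0266). It belongs to a multigene family whose near-identical copies may share reads. Other genes called higher outside the lists were RAB3IL1 (1.31), TESK1 (1.43), RHOQ (0.65), OCIAD2 (0.66) and ERRFI1 (0.66), an inhibitor of EGFR. Those called lower included the adhesion molecule L1CAM (−0.89), the acyl-CoA-binding protein gene DBI (−0.87), the matrix gene VWA1 (−0.90), the mRNA decay factor ZFP36 (−1.04), the small GTPase RAB26 (−1.87), the oxysterol-binding relative OSBPL10 (−0.62) and the annexin partner S100A10 (−0.88). The other 12 genes called lower off the lists ranged from −1.69 (CCM2L) to −0.53 (POLR2L, a subunit of the RNA polymerases). None of the genes in this paragraph passed in all 6 refits, and adjusted p reached 0.223 for TNS3 without untreated replicate 1.

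**Figure D4:**
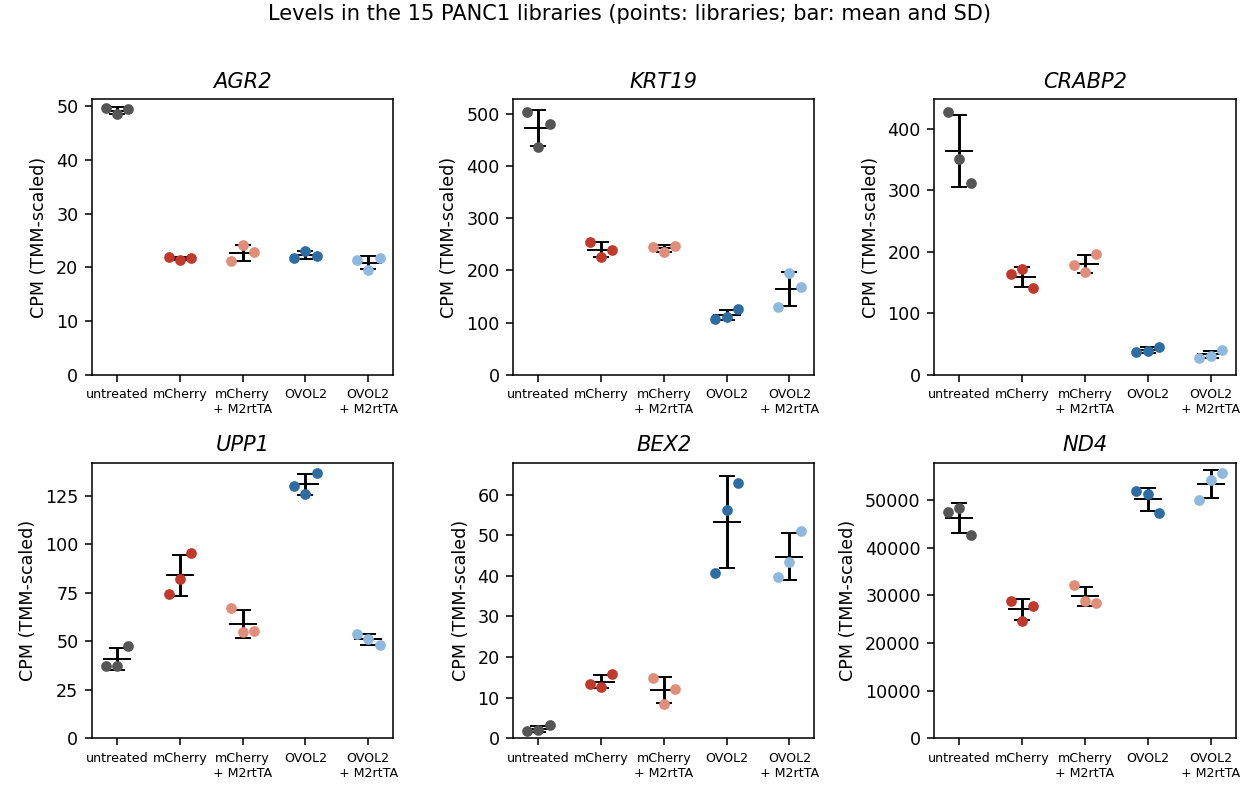
CPM of 6 genes (y axis, linear from 0) in the 15 PANC1 libraries by group (x axis), with points for libraries and bars for the mean and SD of 3. AGR2, KRT19, CRABP2 and ND4 are lower and UPP1 and BEX2 higher in all 3 mCherry libraries than in any untreated library, and the OVOL2 groups differ from gene to gene, with ND4 near the untreated level. Of all tested genes, 15.6% had mCherry and untreated groups that did not overlap.

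Lists of responses often looked for after viral transduction or drug selection had no called gene between mCherry and untreated PANC1. Of all tested genes 0.598% were called, and at that share lists of these sizes would mostly hold no call. None of the 43 interferon-stimulated genes tested, of 54 listed, passed, and their median change was 0.04. ISG15, a ubiquitin-like protein induced by interferon, measured 60.3 ± 5.43 CPM in untreated and 52.6 ± 4.72 CPM in mCherry libraries (−0.20, adjusted p = 0.772). IRF1, an interferon-induced transcription factor that is named here after its values were seen, had the largest value of that list at 3.96 (SE 1.13, adjusted p = 0.179). It held 32, 81 and 39 counts in untreated and 55, 4130 and 47 counts in mCherry libraries, so that 1 library, mCherry replicate 2, stood apart. IRF1 was the list's only call in the test of PANC1 against the other lines described below (4.11, SE 0.87, adjusted p = 0.0193), and without mCherry replicate 2 that difference was −0.10 (SE 0.34, adjusted p = 0.983) and the change in PANC1 −0.22 (SE 0.34, adjusted p = 0.921). None of 20 p53 targets passed, with a median of −0.01, and CDKN1A, the cell cycle inhibitor p21, gave 0.20 (adjusted p = 0.698). Likewise none was called among 49 cell cycle genes, 66 ribosomal protein genes, 20 genes of NF-kB and inflammation, 14 heat shock genes and 20 immediate early genes, whose medians lay between −0.10 (cell cycle) and 0.05 (ribosomal proteins). Values that missed the threshold do not show that these genes did not differ.

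The arm that combined mCherry with M2rtTA gives a second set of transduced PANC1 libraries. It was set against the same 3 untreated libraries, so its values are given beside the first ones and not as separate support. There, 60 of the 13218 genes passed (0.454%), 25 higher (0.189%) and 35 lower (0.265%), or 24 without untreated replicate 1 and 85 without mCherry + M2rtTA replicate 3. SCD stood at 65.6, 69.8 and 81.2 CPM (−2.22, SE 0.15, adjusted p = 4.49e-06), FASN at 70.6 ± 5.96 CPM (−1.75, adjusted p = 0.00325) and INSIG1 at 13.5 ± 2.73 CPM (−1.92, adjusted p = 0.000195). The cholesterol list had 10 of 25 genes lower in this arm, and EBP, called in the first arm, did not pass (−0.89, adjusted p = 0.092). TRIB3 measured 30.7, 24.9 and 31.8 CPM (1.52, SE 0.19, adjusted p = 0.00142), PSAT1 238 ± 23.9 CPM (1.13, adjusted p = 0.00142) and ASNS 113 ± 4.54 CPM (1.26, adjusted p = 0.00166). ATF4 (0.71, adjusted p = 0.0541) and NUPR1 (0.86, adjusted p = 0.0544) did not pass in it. FADS1 changed by −1.16 (adjusted p = 0.00613) here, and IARS1, the isoleucyl-tRNA synthetase, by 0.60 (adjusted p = 0.0389). Of the mitochondrial transcripts, RNR1 gave 1.02 (adjusted p = 0.0228), RNR2 0.51 (adjusted p = 0.0389), ND4L 0.64 (adjusted p = 0.0368), ND4 −0.63 (adjusted p = 0.00166), COX2 −0.59 (adjusted p = 0.00142) and COX3 −0.56 (adjusted p = 0.0437), and the ratio of ribosomal to messenger counts was 0.143 ± 0.0138. BEX4 held 2, 6 and 4 counts, and ERO1A was at 106 ± 12.4 CPM.

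The arms were then compared with each other. Between mCherry + M2rtTA and mCherry, 0 of 13218 genes passed in edgeR, with 812 at an unadjusted p under 0.05, while DESeq2 called 23 genes and leaving out mCherry + M2rtTA replicate 3 gave 14 in edgeR. Among the genes described above, the difference between the arms had these values, none of which passed: SCD gave −0.07 (SE 0.14, adjusted p = 0.98), PSAT1 −0.18 (SE 0.13, adjusted p = 0.934), TRIB3 −0.36 (SE 0.17, adjusted p = 0.815) and MSMO1 0.21 (SE 0.16, adjusted p = 0.935). Further from 0 relative to their SE, and also not past the threshold, were HMOX1 (−0.72, SE 0.19, adjusted p = 0.536), UPP1 (−0.51, SE 0.14, adjusted p = 0.585) and MRNIP (−0.36, SE 0.12, adjusted p = 0.656).

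PANC1 libraries that carried OVOL2 went through the same virus and drug steps, and their levels are given for the main genes without a test, since OVOL2 differs as well. SCD stood at 57.8 ± 5.36 CPM with OVOL2 and 62.8 ± 4.07 CPM with OVOL2 + M2rtTA, against 337 ± 50.1 in untreated cells. FASN was at 77.7 ± 2.3 and 69.5 ± 5.38 CPM, and AGR2 at 22.3 ± 0.724 and 20.9 ± 1.25 CPM, close to its 21.6 ± 0.271 with mCherry. For these 3 genes all 12 transduced libraries lay under the 3 untreated ones. The 3 genes were already called lower against the same untreated libraries, so this is no further support. The share of all genes separated in this way was not computed. For mCherry alone it was 8.42% with mCherry lower and 7.14% with mCherry higher. TRIB3 was at 41.1 ± 2.36 and 22.2 ± 4.48 CPM and CHAC1 at 164 ± 22.5 and 79.8 ± 16 CPM, all above the untreated libraries. Both had already been called higher against those libraries, so the same limit holds. Others did not keep the mCherry level when OVOL2 was carried: PHGDH measured 87.8 ± 10.9 and 59.7 ± 11.6 CPM against 76 ± 8.78 untreated and 165 ± 18 with mCherry. ND4 measured 50187 ± 2436 and 53326 ± 2925 CPM against 46192 ± 3111 untreated and 27064 ± 2232 with mCherry. BEX2 at 53.2 ± 11.4 and 44.6 ± 5.79 CPM lay above its mCherry level of 13.9 ± 1.62.

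The same contrast was tested in 2 other pancreatic cancer lines to see where PANC1 differs. In KP4, 0 of 13662 genes passed in edgeR (0%), with 966 at an unadjusted p under 0.05 and 11 called by DESeq2. In PK45H, 1 of 13583 passed (0.00736%), the aldo-keto reductase gene AKR1C2, which was lower, with 1084 at an unadjusted p under 0.05 and 26 called by DESeq2. Leaving out 1 library gave 0 to 1 calls in KP4 and 0 (without PK45H mCherry replicate 1, among others) to 5 (without PK45H mCherry replicate 2) in PK45H. The difference itself, the PANC1 change minus the mean change of KP4 and PK45H, was tested in one fit of the 45 libraries and passed for 49 of 14943 genes (0.328%), 24 of them positive (0.161%) and 25 negative (0.167%). The count was 27 without PANC1 untreated replicate 3. Of the 79 genes called in PANC1, 31 were among these 49, a number that is not independent of their choice since the same PANC1 libraries enter both.

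Lipid genes were 13 of those 49. SCD gave −2.15 in PANC1, −0.68 in KP4 and 0.59 in PK45H, a difference of −2.09 (SE 0.20, adjusted p = 7.98e-08). FASN gave −1.71, −0.16 and 0.49 in the same order (difference −1.86, SE 0.29, adjusted p = 0.000697). MSMO1 gave −1.29, −0.05 and 0.07 (difference −1.29, SE 0.22, adjusted p = 0.00134). In the interaction fit, 7 of 25 cholesterol genes and 6 of 19 fatty acid genes had a called negative difference and none a positive one, against 0.167% of all genes with a called negative difference. The median difference over the 25 cholesterol genes was −0.91, and none of them lay above 0. Untreated SCD stood at 53.9 ± 4.03 CPM in KP4, 48.5 ± 11.5 in PK45H and 337 ± 50.1 in PANC1, where each line was scaled on its own and the levels were not tested.

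Some amino acid genes also differed between the lines. On the lists of the ATF4 response and of amino acid synthesis, 4 genes had a called positive difference, against 0.161% of all genes: STC2 (1.81, SE 0.28, adjusted p = 0.000477), PCK2 (1.54, SE 0.25, adjusted p = 0.00115), PSAT1 (0.92, SE 0.16, adjusted p = 0.0031) and ASNS (0.85, SE 0.18, adjusted p = 0.0193). TRIB3 gave 1.88 in PANC1, 0.68 in KP4 and 0.90 in PK45H, and the difference did not pass (1.11, SE 0.30, adjusted p = 0.102). The same held for CHAC1, with 0.86 in KP4 and 0.47 in PK45H (difference 1.15, SE 0.29, adjusted p = 0.0739), and for ATF4 (difference 0.59, SE 0.15, adjusted p = 0.0922). Within the lines ASNS gave 0.41 (adjusted p = 0.535) in KP4 and 0.91 (adjusted p = 0.123) in PK45H. Of the mitochondrial transcripts, RNR1 gave −0.06 in KP4 and 0.07 in PK45H (difference 1.37, SE 0.19, adjusted p = 0.000215), and ND4 −0.18 and −0.17 (difference −0.58, SE 0.10, adjusted p = 0.00115). KRT19 gave 0.54 in KP4 and −0.36 in PK45H against −0.98 in PANC1 (difference −1.06, SE 0.17, adjusted p = 0.000748), whereas the difference for AGR2, which stood at 4.13 ± 1.21 CPM in untreated KP4 and 4.29 ± 0.681 CPM in untreated PK45H, did not pass (−1.03, SE 0.32, adjusted p = 0.217).

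**Figure D5:**
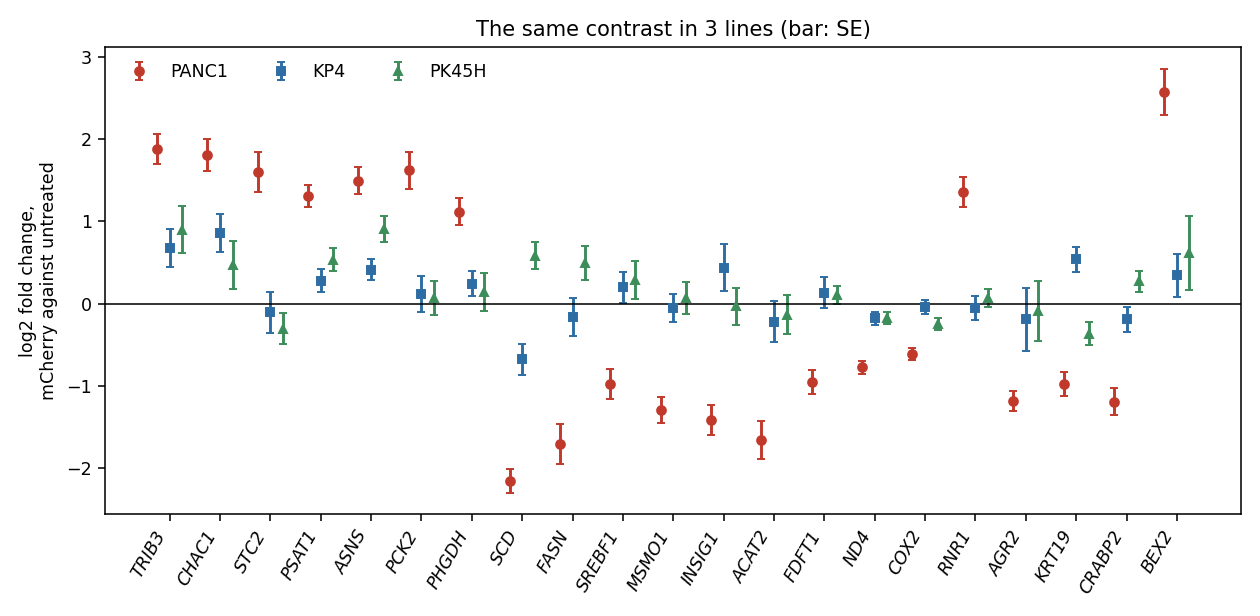
Log2 fold change of mCherry against untreated (y axis) with its SE for 21 genes (x axis) in PANC1, KP4 and PK45H, each line fitted on its own. SCD, FASN and the sterol genes lie well below 0 in PANC1 and near or above 0 in the other lines, except SCD in KP4 at −0.68, while TRIB3 and ASNS lie above 0 in all 3.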

How the data were processed

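Counts per gene of 51 PLATE-seq libraries were taken as the authors deposited them, in whole numbers and not normalised. The submitters' processing notes name kallisto 0.44.0 and GRCh38, without their role. How estimated counts were rounded is not given in the sources used here. Reads shared by near-identical copies may be divided between them. Group labels came from sample titles, and 24602 of 25421 symbols matched the RefSeq table of GRCh38.p14.

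The 15 PANC1 libraries of 5 groups were fitted in edgeR 4.0.16 (R 4.3.3) after its filter on low counts by group and TMM scaling. The quasi-likelihood test was two-sided, and the SE is the log2 fold change over the root of its F. KP4 and PK45H were fitted likewise, and the difference between lines in one fit of 45 libraries and 15 groups. CPM levels were scaled within each line. Alternatives used DESeq2 1.42.0, RLE scaling, other filters, thinning, a replicate block, other sample sets, and fits without 1 library or without mitochondrial transcripts. Fits with robust dispersion were chosen after seeing the data. The code was tested on simulated data. Replicates of a group differed beyond sampling noise (chi-square per degree of freedom of at least 18.3).

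Any gene past the threshold could be named, values per library were given for 14 genes called higher and 14 called lower, taken by p, and further genes were named from a fixed list. Libraries, members and gene lists were chosen with earlier results of these data known. Some results are not reported here. Promoters and their coordinates are from RefSeq. An endothelial marker sum was 4.93 to 9.97 CPM in untreated and 6.62 to 10.9 CPM in mCherry libraries.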

Additional observations from a re-analysis of the deposited data

Results flagged for a closer look

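For 30 named genes the change in PANC1 differed from the mean change in KP4 and PK45H in edgeR's test of the difference itself (adjusted p at most 0.0487, with 3 libraries per group). Over all genes, 49 of 14943 passed that test (0.328%). All of the 30 but FADS1 had already been called in PANC1, and the same PANC1 libraries enter both tests. Genes could also be named for passing this test, so their number is no separate support. The values are differences of log2 fold changes, and no explanation was weighed. Lipid genes had negative differences: SCD −2.09, FASN −1.86, FADS2 −2.41, FADS1 −0.89, SLC25A1 −0.78, SREBF1 −1.21, MSMO1 −1.29, INSIG1 −1.60, ACAT2 −1.47, FDFT1 −1.06, DHCR7 −1.48 and IDI1 −1.53. FADS1 had not passed in PANC1 on its own. Amino acid genes had positive ones: PSAT1 0.92, ASNS 0.85, PCK2 1.54 and STC2 1.81. Mitochondrial transcripts gave ND4 −0.58, COX2 −0.46, RNR1 1.37 and ND4L 0.76. Among the other genes, BEX2 (2.11), UPP1 (0.91), FTH1 (0.69) and HSPA5 (0.72) had positive differences, and CRABP2 (−1.22), KRT19 (−1.06), CTXN1 (−0.74), RAB26 (−2.06) and ZFP36 (−1.37) negative ones. The difference for ERO1A, 6.84, rests on the counts of mCherry replicate 3 described above.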

How the results depend on the processing

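Each of the 79 genes kept its direction under every setting tried, and 18 passed under all of them, SCD, TRIB3, AGR2, PSAT1, ND4 and ASNS among them. In PANC1, mCherry against untreated gave 191 calls with DESeq2, 132 in one fit of all libraries, 23 with only the groups compared and 27 to 60 without 1 library. For mCherry + M2rtTA against untreated (60 calls) the values were 157, 108, 18 and 24 to 85, and 91 with robust dispersion. Between the arms (0 calls), DESeq2 gave 23, one fit of all libraries 27 and fits without 1 library 0 to 14. KP4 (0 calls) gave 11 with DESeq2, 11 in one fit of all libraries and 0 to 1 without 1 library. PK45H (1 call) gave 26 with DESeq2, 44 in one fit of all libraries, 2 without the filter, 2 with robust dispersion, 3 after thinning and 0 to 5 without 1 library. The difference between lines (49 genes) gave 121 with DESeq2, 25 with only the untreated and mCherry libraries and 27 to 54 without 1 library. The difference in mitochondrial share ranged from −2.29 to −0.117 percentage points without 1 library. With only the 6 libraries compared, calls fell to 3 for the ATF4 list, 4 for amino acid synthesis, 0 for transporters, 0 for synthetases, 3 for cholesterol, 2 for fatty acids and 1 for mitochondrial transcripts. The smaller number of libraries leaves that fit fewer degrees of freedom, and for the other settings the cause was not tested.

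With the replicate number as a block, 54 genes passed in PANC1, 42 for mCherry + M2rtTA, 42 for the difference between lines and 2 in PK45H. Same-numbered untreated and mCherry libraries correlated at −0.022, 0.178 and 0.061 after removal of group means, so the numbers were not taken to pair the libraries, and not every library correlated best with its own number. Depth limits what genes with few counts, such as BEX4, can show.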
